A study of Caenorhabditis elegans with 2 samples.

Results

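The regions described here are entries of a pooled list of peaks and background from Caenorhabditis elegans. They lie on autosomes, inside an intron of a protein-coding gene and away from any gene start. A region was taken when its summit lay in an intron, in no annotated exon and more than 500 bp from the start of any annotated transcript. The pooled list held 16958 regions, 14192 of them on autosomes, and 2136 met this rule (12.6% of all, 95% Wilson interval 12.1 to 13.1%). Of the 2136, 15 also stood in the authors' list of reproducible peaks, which held 621 regions.

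The data come from chromatin immunoprecipitation and sequencing of strain OP478, genotype unc-119(tm4063) III; wgIs478. Its integrated transgene carries the gene T07F8.4 with a GFP-FLAG tag at the C terminus of the protein, and the antibody was directed against GFP. Whole hermaphrodites were taken as young adults, 64 hours after synchronization as starved first-stage larvae, and there were 2 biological replicates of this single group. No untagged strain, second stage or input sample was analysed here, all tissues were mixed in 1 extract, and the promoter that drives the transgene is not stated in the labels.

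Introns are the transcribed stretches that splicing removes from a messenger RNA. Worm introns are mostly short, and long ones, often near the 5′ end of a gene, can hold enhancers, internal promoters, transposon remnants and whole nested genes. Transfer RNA genes can also lie in introns; RNA polymerase III reads them through internal promoter elements called the A box and the B box, which are bound by the factor TFIIIC. The files give no function for T07F8.4, and none is assumed here.

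Some of the sequences under the reproducible intronic summits are given first. Several share letters that were picked after such windows had been seen. Their higher share than in other intronic regions is thus part of how they were picked, and nothing is concluded from it. They were read from the RefSeq genome of build ce11 (WBcel235), 5′ to 3′. In the first pair the capitals mark an A box (searched as TGGCNNAGT) followed by a B box (searched as GTTCNANNC), and these are the 2 intronic regions with the highest signal. The srt-52 sequence is chrV:53468-53557 on the plus strand and the lips-10 sequence is chrII:8441623-8441712 on the minus strand, each on the strand opposite to its host gene.
srt-52: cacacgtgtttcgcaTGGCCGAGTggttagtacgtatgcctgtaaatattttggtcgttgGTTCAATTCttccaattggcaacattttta
lips-10: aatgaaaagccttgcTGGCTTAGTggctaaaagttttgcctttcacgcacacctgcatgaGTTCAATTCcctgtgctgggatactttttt

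The second set shows 6 of the 7 reproducible regions that hold the letters GACGCAG, in capitals, within 100 bp of the summit. The region in acs-13 also holds them and is not shown. The pqn-41 sequence is chrIII:1925412-1925458 (minus strand), epg-9 is chrIV:2602128-2602203 (minus), mnk-1 is chrII:10552030-10552225 (minus), and daf-5 is chrII:14040483-14040529 (plus). The pair from Y111B2A.12 is chrIII:12617226-12617272 (plus) and chrIII:12612645-12612691 (minus). The epg-9 and mnk-1 sequences hold the letters at 2 places each.
pqn-41: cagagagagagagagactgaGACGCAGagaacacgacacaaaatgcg
epg-9: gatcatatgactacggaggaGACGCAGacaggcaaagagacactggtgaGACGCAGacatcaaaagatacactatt
mnk-1: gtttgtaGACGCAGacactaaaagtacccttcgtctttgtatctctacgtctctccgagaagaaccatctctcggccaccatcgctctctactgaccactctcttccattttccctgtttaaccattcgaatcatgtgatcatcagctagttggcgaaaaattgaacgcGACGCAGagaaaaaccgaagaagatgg
daf-5: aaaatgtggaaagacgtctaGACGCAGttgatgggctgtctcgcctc
Y111B2A.12, right: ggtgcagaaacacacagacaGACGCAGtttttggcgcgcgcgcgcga
Y111B2A.12, left: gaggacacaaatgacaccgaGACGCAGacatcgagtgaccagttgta

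Intronic regions were seldom among the reproducible peaks. The 15 made up 0.702% of the 2136 intronic regions (95% Wilson interval 0.426 to 1.16%), against 3.66% of all pooled regions, and 2.42% of the 621 reproducible regions. The same share was 0.696% (0.237 to 2.03%) of 431 intronic regions of the X chromosome and 0.526% (0.329 to 0.841%) of 3231 autosomal regions with the summit in a coding gene's exon and over 500 bp from a start. It was 1.85% (1.34 to 2.55%) of 1950 autosomal regions outside every transcript and equally far from starts. No test was made of these shares, since regions are not replicates, and the intervals cover counting error only.

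The reproducible list consisted of the pooled regions with the highest signal, the value that the authors' peak caller gave each region, so the signal of its members is a description of how they were chosen. Signal over all intronic regions ran from 16.99 to 136.8 with a median of 21.4 and quartiles of 18.9 and 25.8, in units that the sources used here do not give. The median was 23.0 over the pooled list, 22.3 over the exonic and 22.8 over the intergenic regions. The 15 reproducible regions ran from 69.3 to 136.8, with a median of 83.2. At the edge of the reproducible list, whose lowest value was 68.23, the region of saeg-1 at 69.3 fell just inside. The regions of C33B4.4 at 68.19 and of coq-3 at 68.18 fell just outside. The deposited −log10 q-values did not follow this order. Of the 15, 9 stood at the upper value of 2.92, while the zfp-1 region had 2.46 and the C33B4.4 region had 2.62. Over all 2136 intronic regions the median −log10 q-value was 0.154 and the upper quartile 0.375, far below the values of the reproducible ones.

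**Figure D1:**
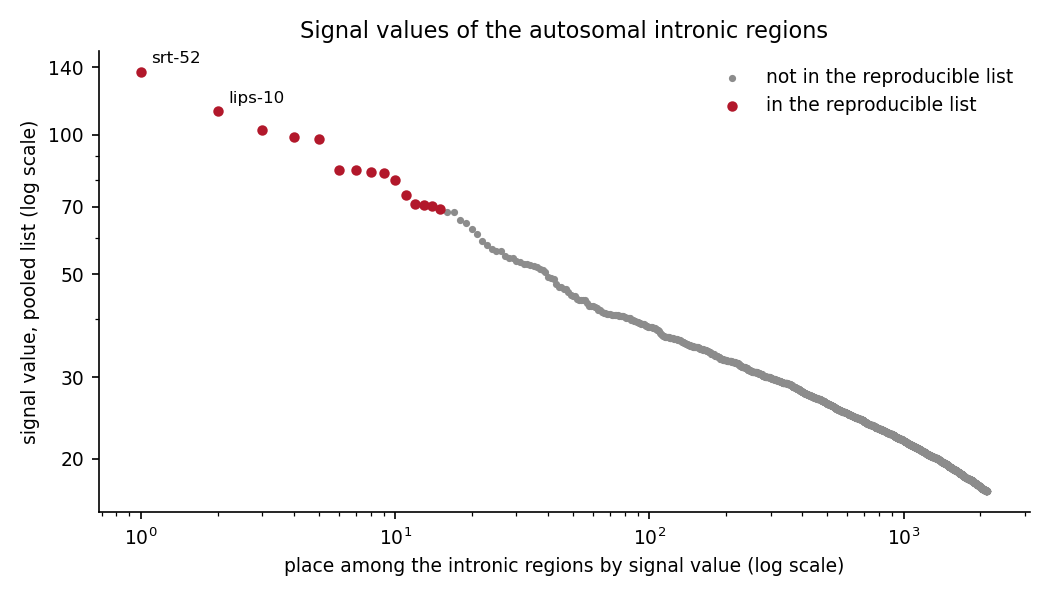
Signal value in the pooled list (y axis, log scale) of each of the 2136 autosomal intronic regions against its place by signal (x axis, log scale). The 15 reproducible regions (red) run from 69.3 to 136.8 and join the other regions (grey) without a gap.

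The strongest intronic region lay in srt-52, a gene of the serpentine chemoreceptor family of class T. Its interval was chrV:53407-53549 with the summit at 53487, in the middle of intron 2 of 4, an intron of 3934 bp. Its signal was 136.8 in the pooled list, 73.01 in the list of replicate 1 (place 111 there) and 63.4 in that of replicate 2 (place 127). It was 143 bp wide, while the other 2135 intronic regions were all 436 bp wide. The A box and B box in its sequence were 45 bp apart from start to start. The window of 50 bp on each side of its summit matched 1 other place in the genome, chrIV:2740176-2740274, with 81.2% identity. RefSeq annotates the tRNA pseudogene Y94H6A.T1 at that place.

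The second region lay in lips-10, a gene of the lipase-related family, in its last intron (number 3 of 3), which is only 198 bp long. The summit was chrII:8441689, 79 bp from the nearer splice site, and the nearest transcript start, 1078 bp away, was that of eif-3.G and not of the host. Signal was 112.4 in the pooled list, 63.04 in replicate 1 and 47.5 in replicate 2. Its boxes were likewise 45 bp apart, and its window had no second copy in the genome. Both regions were thus high in each replicate, and neither had an annotated non-coding gene within 1000 bp: the nearest was 14123 bp from the srt-52 summit and 9861 bp from the lips-10 summit.

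The gene pqn-41 encodes a prion-like protein rich in glutamine and asparagine, and it held a pair of reproducible regions in a single intron, number 14 of 22, of 10372 bp. The summit at chrIII:1925381 had a pooled signal of 98.9, with 50.7 in replicate 1 and 46.5 in replicate 2. The summit at chrIII:1921288 had 97.8, with 44.5 in replicate 1 and 55.2 in replicate 2. The same intron held 3 further regions, at signals of 61.1, 51.1 and 26.1. The interval of the first of these, chrIII:1921275-1921710, overlapped that of the reproducible region with its summit at chrIII:1921288. Of the gene's 5 regions, 4 had a summit in both replicate lists.

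The gene mnk-1, which encodes a MAP-kinase-interacting kinase, also held 2, both in intron 2 of 7 (5833 bp). The summit at chrII:10552125 had a signal of 83.2, with 51.4 in replicate 1 and 38.4 in replicate 2. That at chrII:10547664 had 70.1, with 33.5 and 37.95, and lay 2 bp from the splice site at the 3′ end of the intron. In all, mnk-1 had 8 intronic regions in all, and 3 of them were seen in both replicates. Between the reproducible pair stood regions with signals of 16.996, 36.5, 33.4 and 19.96.

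Y111B2A.12, a gene for which no role is given here, had its 2 reproducible regions toward opposite ends of intron 4 of 7 (7076 bp), at 27.6% and 92.7% of the way through it. Their pooled signals were 71.1 and 74.2. The first had 50.95 in replicate 1 and 18.8 in replicate 2, where it stood at place 3381, the lowest place of any reproducible intronic region in either list. The second had 46.1 and 27.1. Replicate 2 was thus the lower list for both.

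The gene daf-5 encodes a Sno/Ski-family protein of the TGF-beta pathway that controls dauer formation. It had 1 reproducible region, at chrII:14040506 in its first intron, which at 14446 bp was the longest intron to hold one. Signal was 82.5 in the pooled list, 44.8 in replicate 1 and 36.5 in replicate 2. The other 8 intronic regions of daf-5 had signals of 17.04 to 30.2, so the gene combined 1 strong region with many weak ones.

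**Figure D2:**
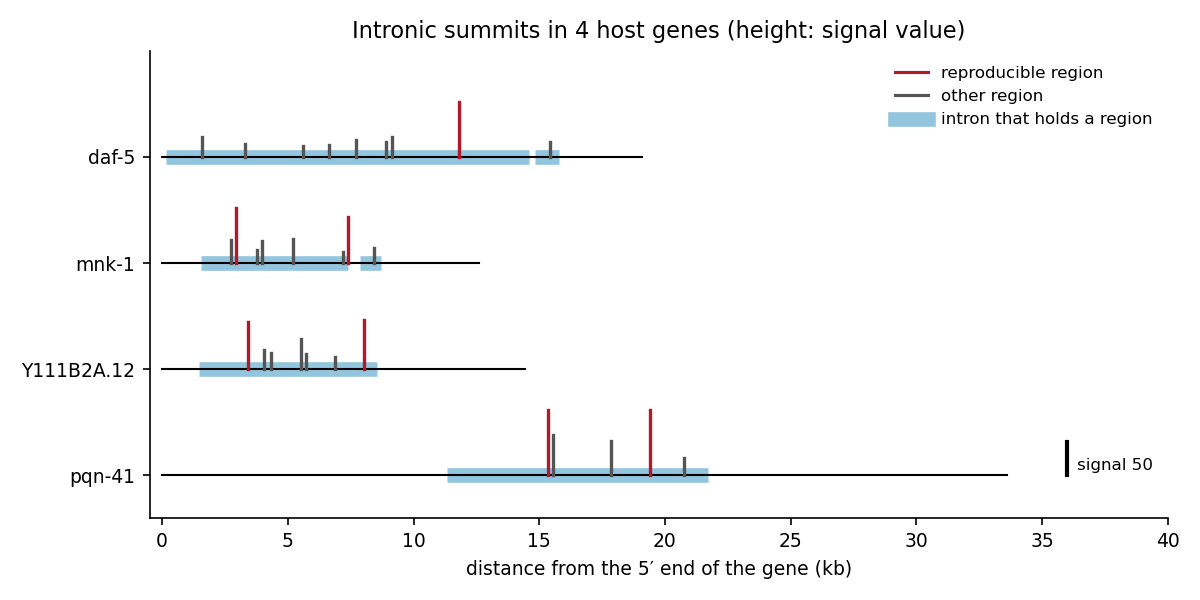
Positions of all intronic regions in the 3 host genes with 2 reproducible regions and in daf-5, as distance from the 5′ end of the gene in kb (x axis). Blue bars are introns that hold a region, and the height of each line is the signal value, with red for reproducible regions: in mnk-1 and Y111B2A.12 the red lines stand toward opposite ends of 1 intron, with lower lines between them.

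Among the other reproducible regions, 3 lay in genes of chromatin and signalling. The gene let-526, coding for an ARID1-like subunit of the SWI/SNF chromatin remodelling complex, had a summit at chrI:5313187 in intron 3 of 12, with 83.9 in the pooled list, 30.9 in replicate 1 and 52.8 in replicate 2. The gene zfp-1, coding for the homolog of the leukaemia-associated protein AF10, had one at chrIII:8795855 in intron 4 of 13, with 79.8, 42.6 and 44.4. The gene saeg-1, a suppressor of an activated form of the kinase EGL-4, had one at chrV:10857308 in intron 8 of 14, with 69.3, 28.5 and 31.7. In these genes replicate 2 had the higher value in its own list.

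The remaining 3 lay in genes of other kinds. The gene epg-9, whose product acts in autophagy, had a summit at chrIV:2602187 in intron 2 of 5, with 84.1 in the pooled list, 53.1 in replicate 1 and 26.6 in replicate 2. The gene acs-13, an acyl-CoA synthetase gene, had one at chrI:518549 in intron 1 of 5, with 70.6, 31.4 and 36.8. Y69A2AR.31, with no role given here, had one at chrIV:2657511 in intron 9 of 15, with 102.7, 54.6 and 47.2. The epg-9 region was among the weaker ones in replicate 2, at place 1245, against 277 in replicate 1.

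All 15 reproducible intronic regions had a summit within 100 bp in each replicate list (95% Wilson interval 79.6 to 100%), against 591 of the 621 reproducible regions in all (95.2%). The reproducible list was chosen from the same 2 libraries and holds the highest pooled signals. Such matches are thus largely part of that choice, and nothing is concluded from them. The replicate lists held 19514 and 17499 regions. Within the 621 regions of highest signal of its own list, replicate 1 held 11 of the 15 and replicate 2 also held 11, and 8 were within it in both.

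Over all 2136 intronic regions the replicates overlapped far less. A summit within 100 bp stood in both lists for 392 (18.4%, interval 16.8 to 20.05%), against 26.2% of all pooled regions. A further 1367 (64.0%) were matched in 1 list only and 377 (17.6%) in neither. Replicate 1 matched 51.6% and replicate 2 matched 49.1% of them. The share in both was 17.9% of the X intronic, 20.1% of the exonic and 23.9% of the intergenic regions. Across the 392 regions, signal in replicate 1 and signal in replicate 2 had a Spearman rho of 0.37, a description over regions that share the same 2 libraries and the pooled selection.

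**Figure D3:**
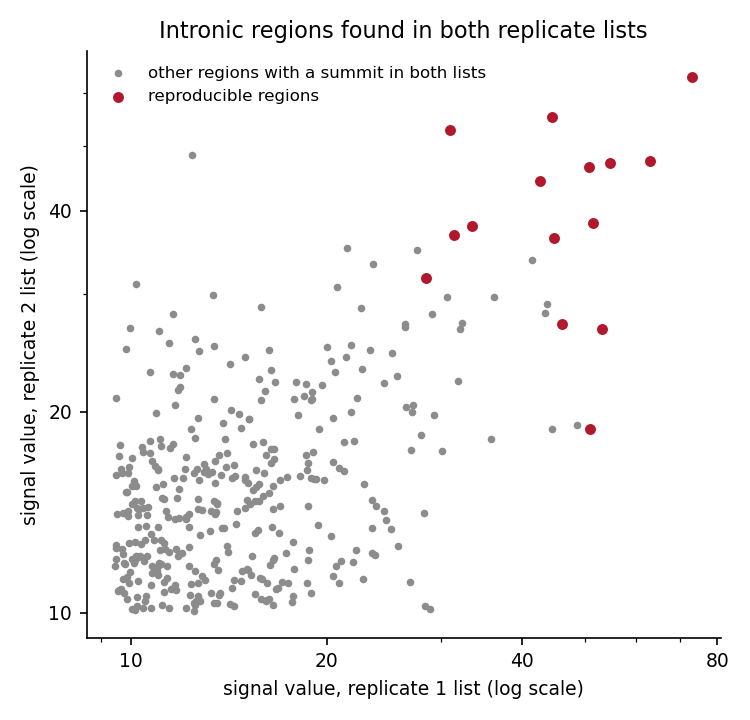
Signal value in the replicate 1 list (x axis) against that in the replicate 2 list (y axis), both on log scales, for the 392 intronic regions with a summit within 100 bp in both lists. The reproducible regions (red) reach 73.01 and 63.4 and lie at or above 28.5 in replicate 1 and 18.8 in replicate 2.

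The 10 strongest intronic regions outside the reproducible list all had a summit in both replicate lists. After C33B4.4 and coq-3, the gene of a ubiquinone-synthesis methyltransferase, came gei-4 (signal 65.4) and larp-1, a La-related RNA-binding protein gene (64.5). A second region of saeg-1 followed at 62.8 and a further one of pqn-41 at 61.1. The latter overlapped a reproducible region of pqn-41. The last 4 were Y73F8A.26 (58.9), spop-1 (57.9), pygl-1, the glycogen phosphorylase gene (56.8), and F59A1.13 (56.3). In replicate terms larp-1 was uneven, with 48.5 in replicate 1 and 19.1 in replicate 2, and gei-4 less so, with 41.5 and 33.8. Of these 10, 6 lay in introns of 2000 bp or more, and GC content within 50 bp of their summits ran from 36.6 to 62.4%.

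Agreement between replicates, GC content and intron length fell together down the order of signal. The share in both lists was 100% for the first 15 regions, 76.5% from there to place 100, 53.5% to place 300, 25.3% to place 1000 and 2.46% for the 1136 regions below. Median GC content over the same steps was 48.5, 47.5, 40.6, 36.6 and 33.7%. Median intron length was 4345, 1741, 998.5, 909 and 802 bp. The median share of the window that the genome file marks as repeat or low complexity went the other way, from 19.8 and 23.8% to 28.2, 39.6 and 42.6%. Signal was used to form these steps, and the pooled and replicate lists come from the same 2 libraries, so the first series only describes the lists.

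**Figure D4:**
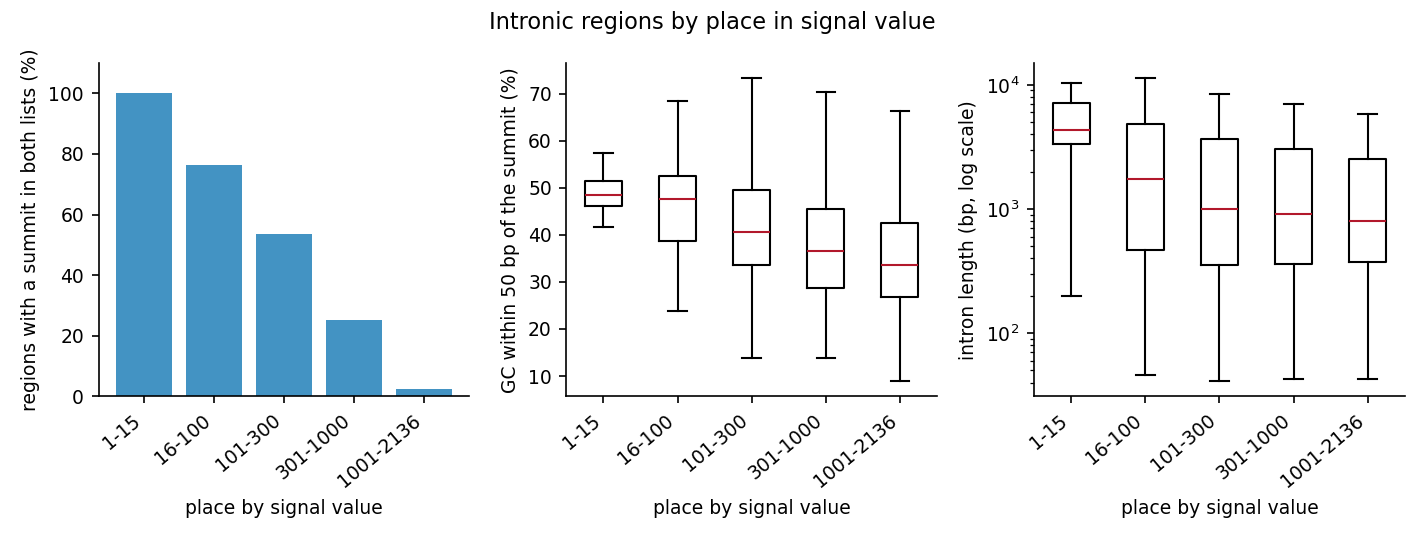
Intronic regions in 5 steps by place in signal (x axes): share with a summit in both replicate lists in percent (left, bars), GC content within 50 bp of the summit in percent (middle) and intron length in bp on a log scale (right). Boxes give median and quartiles, and whiskers reach the farthest value within 1.5 box lengths; all 3 measures are highest in the first step.

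Over single regions the relation of signal to GC content was loose, with a Spearman rho of 0.20 across all 2136, of 0.26 across the 666 in introns of 2000 bp or more and of 0.15 across the 1470 in shorter introns. Signal and intron length had a rho of 0.06. These points share the 2 libraries, and GC content can affect how well DNA is amplified and sequenced; its part in the signal was not tested. The median GC content at the summits was 35.6%, against 32.7% over windows at all 19.5 Mb of intronic bases that the rule could have taken, here called eligible bases.

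Long introns held most of the reproducible regions but not a large excess of all regions. Introns of 2000 bp or more held 13 of the 15 reproducible regions (86.7%, interval 62.1 to 96.3%), 31.2% of all intronic regions (29.3 to 33.2%) and 29.6% of the eligible bases. The 2 exceptions were lips-10 (198 bp) and epg-9 (1824 bp). The 13 are not independent, since pqn-41, mnk-1 and Y111B2A.12 each held 2 of them in 1 intron. The interval does not allow for this and is too narrow. Among the regions at places 16 to 100, 40 of 85 lay in introns of 2000 bp or more. The median intron that held a region was 874 bp long, against 1016 bp for the intron around the median eligible base.

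The density of regions fell and rose again with intron length. It was 144 regions per Mb of eligible bases in introns under 250 bp and 134 in those from 250 to under 500 bp. It was 99.9 from 500 to under 1000 bp, 76.6 from 1000 to under 2000 bp, 101.1 from 2000 to under 5000 bp and 134 at 5000 bp and over. Short introns lie close to exons, so that an interval of 436 bp with its summit in a short intron covers neighbouring exons too. GC content at the summits differed along this scale. Its median was 31.7% in introns under 250 bp, where eligible bases had 32.7%, and 41.6 and 42.6% in the 2 longest classes, where eligible bases had 33.7 and 34.7%.

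**Figure D5:**
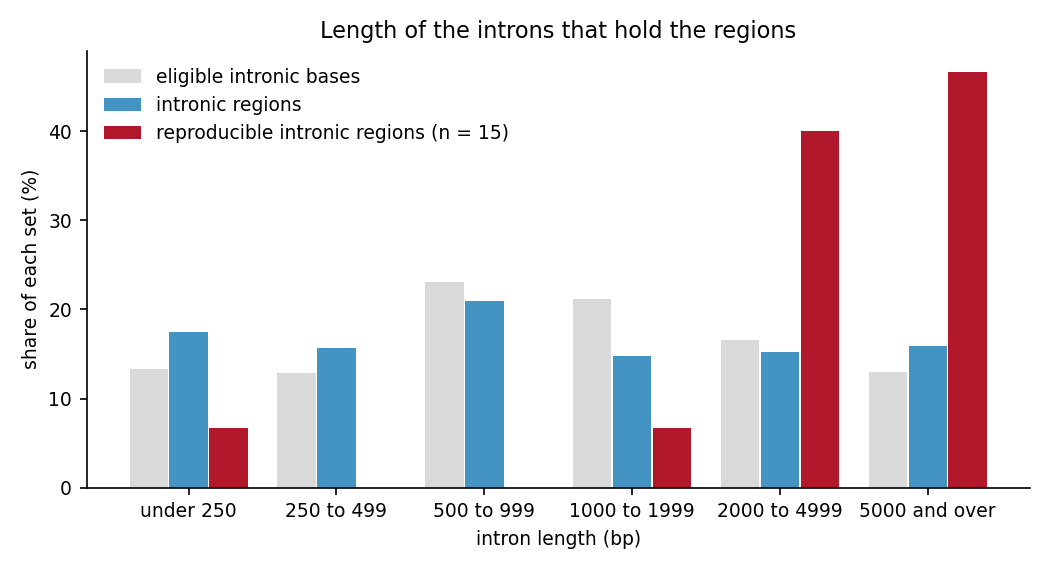
Shares in percent (y axis) of eligible intronic bases (grey), of all 2136 intronic regions (blue) and of the 15 reproducible ones (red) by intron length in bp (x axis). The red bars stand mainly in the 2 longest classes, with 6 and 7 regions, while blue and grey bars are of like height there.

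Shares by intron order lay close to those of the eligible bases. First introns held 356 regions, 16.7% (interval 15.1 to 18.3%), against 15.7% of eligible bases, and last introns held 17.1% against 17.3%. The exclusion of 500 bp around starts removes the front of many first introns from both counts. Of the reproducible regions, 2 lay in a first intron (daf-5 and acs-13), 4 in intron 2, 2 in intron 3, 3 in intron 4 and 4 farther along. Median signal was 22.1 in first introns, 21.4 in second introns and 20.9 from the tenth on.

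The distance rule also decides which intronic regions are counted. Within 500 bp of a start there were 1521 autosomal regions with the summit in such an intron. Of these 62 were reproducible, beside 621 of all 16958 pooled regions (3.66%). Their median signal was 22.99, against 23.0 over the pooled list. A summit stood in both replicate lists for 26.3% of them, against 26.2% of all pooled regions. The near-start regions were thus close to the pooled list in these values. Just inside the limit of 500 bp, from 400 to 500 bp, 4 of 210 were reproducible with a median signal of 21.6. Just outside it, from 500 to 600 bp, 1 of 159 was, with a median of 22.5; that was the right-hand region of Y111B2A.12, 560 bp from a start. The nearest start belonged to the host gene for 67.1% of all intronic regions and for 13 of the 15 reproducible ones.

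The motif counts behind the sequences shown above were as follows, for windows of 100 bp on each side of the summit and both strands. The motifs were chosen after such windows had been seen. Shares among the 15, and their intervals, therefore only describe these windows and cannot test an excess. GACGCAG stood in 7 of the 15 reproducible intronic regions (46.7%, interval 24.8 to 69.9%). It stood in 4.29% of the other 2121 intronic regions, in 4.17% of all 16935 pooled nuclear regions and in 8.33% of the 600 reproducible nuclear regions. It was in 3 of the 10 next strongest intronic regions, those of coq-3, larp-1 and spop-1. The short repeat GAGAGA, which also stands in the pqn-41 sequence, was in 9 of the 15 (interval 35.7 to 80.2%), in 13.5% of the other intronic, in 17.2% of the pooled and in 29.3% of the reproducible nuclear regions. CACTCG was in 5 of the 15 (interval 15.2 to 58.3%), in 4.81% of the other intronic, in 6.03% of the pooled and in 16.2% of the reproducible nuclear regions.

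An A box followed by a B box 30 to 100 bp downstream was found in 2 of the 15, srt-52 and lips-10, and in 14 of the other 2121 (0.660%). It was found in 125 of the 16935 pooled nuclear regions (0.738%), in 7.17% of the 600 reproducible ones and in 50 of 612 annotated nuclear tRNA genes (8.17%), so this spelling of the boxes matches few tRNA genes. An A box, with or without a B box, stood in 3 of the 15 and in 3.02% of the other intronic regions. It stood in 2.79% of pooled regions, in 11.3% of the reproducible nuclear regions and in 9.97% of tRNA genes. A B box, with or without an A box, stood in 4 of the 15 and in 7.40% of the other intronic regions. It stood in 10.6% of pooled regions, in 48.5% of the reproducible nuclear regions and in 96.1% of tRNA genes. Among the 15, 9 held GACGCAG or the pair of boxes and 0 held both. A match is a run of letters and not a shown binding site.

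The 14 weaker regions with the pair of boxes had signals of 17.3 to 58.9. The highest were those of Y73F8A.26 (58.9), Y6B3B.1 (45.1), spe-43 (32.8), Y54F10BM.9 (30.7) and tpra-1 (28.3), each with a summit in both replicate lists. The lowest were those of vab-19 (18.1), in replicate 2 only, and ntr-1 (17.3), in neither list.

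By alignment, the windows of 26 intronic regions matched an annotated tRNA gene or tRNA pseudogene elsewhere in the genome, in 24 cases a pseudogene. Of these regions 13 were in both replicate lists, 7 were among the 100 intronic regions of highest signal, and srt-52 was the only reproducible one. Their median signal was 25.5, against 21.4 over all intronic regions. The best match of 5 windows was Y94H6A.T1, namely those in srt-52, Y6B3B.1, spe-43, T19C3.6 and lmd-3, with signals of 136.8, 45.1, 32.8, 19.1 and 17.01. Another 5 matched F53B1.T1 best, with fan-1 (49.2) and osm-12 (39.8) the highest. Windows that matched the same pseudogene thus carried signals far apart. The treatment of reads that map to several places is not stated in the labels or files used here.

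Few of the reproducible windows recur in the genome, as far as 15 windows can show. Of the 15 reproducible windows, 1 had a second copy in the genome (6.67%, interval 1.19 to 29.8%), against 16.7% (15.2 to 18.4%) of the other intronic regions, where the most copied window had 4938. The first interval includes the second share, and of the 5 reproducible regions in the stricter list 20% had a copy, again that of srt-52.

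The 2136 regions fell in 1576 host genes, 11.5% of the 13670 autosomal coding genes with an eligible base. Of the hosts, 1243 had 1 region, 225 had 2 and 108 had 3 or more, and 12 had a reproducible one. Median eligible sequence per gene was 561 bp over all these genes, 2137 bp over hosts and 5740 bp over the hosts of a reproducible region. A gene with more eligible bases has more room for a summit, and these values are not lengths of single introns. Introns with a nested gene held 13.6% of the regions and 4 of the 15 reproducible ones.

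The hosts with most regions mostly had weak ones. Y48C3A.5 had the most, 11, of which 10 lay in 1 intron of 19927 bp. The signals of the 11 were 18.02 to 44.1, and 1 was in both replicate lists. The gene mtm-3, coding for a myotubularin-type lipid phosphatase, had 10 with signals of 17.5 to 28.3, and its 1.91 regions per kb of eligible bases compare with 0.231 to 1.48 in the other hosts with most regions or with 2 reproducible ones. The gene ncl-1, a regulator of nucleolar size, had 9 with signals of 19.3 to 32.1. The gene tra-1, the GLI-family regulator of sex determination, had 8 with signals of 17.2 to 42.8. In daf-5 there were also 9, and in mnk-1 also 8. Regions of 1 gene are not independent of each other: no 2 intronic summits were closer than 199 bp, 35 neighbouring pairs were less than 210 bp apart, and 349 of the 2136 intervals overlapped another pooled region.

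Hosts were also counted in 11 gene lists chosen by patterns of gene names. The lists are incomplete, as examples chosen after their values were seen show: the kinase mnk-1, with 2 reproducible regions, is not in the kinase list, nor is csnk-1 (46.9), and tra-1, daf-14 (54.3), dmd-6 (52.05) and lag-1 (40.8) are not in that of transcription factors. Orders and counts below hold for the listed genes only, and over all genes with eligible bases 11.5% held a region. Kinases and phosphatases held a region in 37 of 109 genes with eligible bases (33.9%, interval 25.7 to 43.2%), with 162 regions per Mb against 110 over all genes. Among the listed genes the ERK MAP kinase gene mpk-1 was highest at 52.7, followed by cdk-12 (46.5), the dual-specificity kinase mbk-2 (44.9) and unc-43, the CaM kinase II (37.1). G proteins and their signalling enzymes held one in 24 of 93, or 122 per Mb, led by the Rab GTPase-activating protein gene tbc-8 (43.95), the phosphodiesterase genes pde-4 (34.5) and pde-6 (29.8), and the Gs alpha gene gsa-1 (31.8). Transcription factors held one in 45 of 355, or 129 per Mb. The highest of those listed was mef-2, a MADS-box factor (54.1), with hlh-30, a regulator of lysosomal and autophagy genes (40.99), zip-3 (35.7) and the nuclear receptor gene nhr-236 (33.7) after it. None of the hosts in these 3 lists had a reproducible region.

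The next 4 lists are of genes of excitable cells and of tissue structure. Their densities stood on both sides of the 110 regions per Mb over all genes. Ion channels and neurotransmitter receptors held a region in 42 of 200 genes, or 82.01 per Mb, with best-8 (48.9), lgc-38 (26.4), del-10 (25.7) and acr-5 (25.5) highest. Adhesion and matrix genes held one in 17 of 50 at 76.98 per Mb. There hmr-1, a cadherin, stood at 34.7, sax-7, an L1-type adhesion protein, at 30.8, the spectraplakin vab-10 at 23.7 and the perlecan unc-52 at 23.6. Muscle structure genes held one in 11 of 40, or 111 per Mb, with the tropomyosin gene lev-11 at 31.4, zyx-1 at 25.4, the alpha-actinin gene atn-1 at 23.9 and unc-60 at 23.3. Synaptic and neuropeptide genes held one in 26 of 105, or 127 per Mb, with snt-4 at 31.7, unc-25 at 31.6, the syntaxin gene unc-64 at 30.9 and nlp-18 at 28.6.

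The other lists have short introns or few hosts. Chemoreceptors held a region in 43 of 1152 genes (3.73%, interval 2.78 to 4.99%), or 74.9 per Mb. Of the 11 lists as drawn up, which leave out mnk-1, theirs alone had a reproducible region, that of srt-52, and srh-75 (50.6), srh-2 (35.7) and sre-45 (34.3) followed it. RNA-binding and splicing factors held one in 8 of 73, or 93.2 per Mb, led by rbm-12 (36.5), sfa-1 (32.5), exc-7 (30.4) and prp-39 (24.6). Cuticle collagens held one in 4 of 62, or 181 per Mb: col-121 (42.7), col-99 (31.6), col-72 (21.2) and col-142 (17.9). Ribosomal protein genes held one in 4 of only 17 genes with eligible bases, or 2395 per Mb: rps-17 (40.7), rps-7 (38.5), rpl-3 (18.8) and rps-9 (16.99). These were the highest densities of the 11 lists. Median eligible sequence was only 169.5 bp per collagen gene and 91 bp per ribosomal protein gene, so these densities rest on few bases. In col-121, col-99, col-142 and rpl-3 the intron was 41 to 50 bp long, far shorter than the interval around the summit.

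Chromosomes I to V held 498, 374, 482, 382 and 400 intronic regions and 2, 4, 5, 2 and 2 reproducible ones. Per Mb of eligible bases the counts were 107.5, 110.5, 117.6, 119.3 and 96.7. The median signal per chromosome lay between 21.1 and 22.04.

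T07F8.4, carried by the transgene, was looked at because extra copies of a gene can raise its signal. The gene unc-119, which is mutated in the strain, was looked at for the same reason, as it was also taken to be carried by the transgene. No intronic region lay within 20 kb of T07F8.4 on chromosome II, where 5 pooled regions stood. Within 20 kb of unc-119 on chromosome III there were 10 pooled regions and 4 intronic ones, with signals of 23.6 and 17.8 in unc-119 and of 21.9 and 18.03 in its neighbour vab-7, a homeobox gene. None of the 4 was reproducible or matched in both replicate lists.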

How the data were processed

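Peak lists on build ce11 were used: 1 for each of the 2 biological replicates, 1 pooled, and the authors' reproducible list. The pooled list holds peaks and background, as input for irreproducible discovery rate (IDR), by which the reproducible list was obtained. Each region carries the authors' signal value and a −log10 q-value, both as deposited. Not given in the sources used here were the aligner, the peak caller, the scale of the signal and the IDR threshold. The lists give no numbers of reads and the depth is therefore unknown; the intervals printed cover the counting of regions only. The ce10 lists were not used.

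Summits were placed in the Ensembl release 115 annotation. Host and intron number come from the transcript with the longest coding sequence that has the summit in an intron. Summits within 100 bp counted as shared. Copies were sought with BLAST+ 2.17.0 (50 bp on each side of the summit, E-value 1e-05; a second copy needs 80 bp and 80% identity, while any overlap of a match with a tRNA gene or pseudogene counts). GC content used 50 bp on each side. Scripts (Python 3.11.15, pandas 2.3.3) were tested on simulated annotation. No significance test was made: there is 1 group, and regions are not replicates.

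The members, lists, steps and motifs were chosen with earlier results of these data known; wrong entries of the name lists were corrected after values were seen. Named were all 15 reproducible regions, the 10 strongest others and the 5 hosts with most regions (6 with a tie). Hosts with 2 reproducible regions, regions within 20 kb of T07F8.4 or unc-119, and up to 4 hosts per list were also named. Regions with a tRNA match or the pair of boxes were named after their values were seen. Alternatives were other distances from starts, whole intervals, protein-coding transcripts, a stricter reproducible list, other rules for shared summits, single replicates, the shortest intron, other GC windows, stricter copies, and the omission of regions near non-coding genes.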

Additional observations from a re-analysis of the deposited data

How the results depend on the processing

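Of 46 alternative values, 25 stayed within the interval of the reported value, within the SD of the replicate lists or, for counts, within 1.5 times. The other 21 did not. That SD rests on only 2 values, 1 per replicate list. For GC content both were 35.6%, so any other value had to count as moved. For signal, single lists have their own scales, so their values had to move too. The tally is therefore partly fixed by these rules. Requiring the whole interval to lie inside the intron left 975 regions, with 1.23% reproducible, 28.6% in a first intron and a median intron of 3010 bp. A stricter list of the 310 highest reproducible regions held 0.234% of the intronic regions (5), with a median of 102.7; it does not enter the GC content over all regions, which has no value there. In introns of 2000 bp or more, an alternative added after the data were seen, 1.95% were reproducible. The share in both replicate lists was 10.4% for summits within 50 bp, 27.01% within 200 bp and 36.3% for overlapping intervals. With starts excluded to 250 or 1000 bp, first introns held 22.9 or 13.1% and the median intron was 813 or 941 bp; with the shortest intron around each summit, first introns held 23.4%. Median GC content was 35.3% with 25 bp and 37.3% with 100 bp on each side. At 95% identity 0% of reproducible windows had a copy.

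With a single replicate's list and its 621 highest regions, the intronic regions numbered 2314 to 2553, 0.562 to 0.588% were among the highest, with a median signal of 46.5 to 48.5 on the lists' own scales. First introns held 16.6 to 17.1%, the median intron was 792 to 871 bp and GC content was 35.6 to 35.6%. No paired analysis was possible because there is 1 group. Limits are the lack of an untagged control and of depth, and the mixture of tissues; multiple mapping was not assessed. Of the intronic regions, 64.0% had a summit in 1 replicate list only and 17.6% in neither. Values over all 2136 therefore describe the pooled list, with its weak regions and background included.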
